A study of Mus musculus with 6 samples.

Results

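Iron scavenging, iron storage and haem handling were followed in primary mouse hepatocytes through 10 genes, Lcn2, Hp, Hpx, Trf, Tfrc, Fth1, Ftl1, Cp, Hmox1 and Steap4, which were taken by symbol from the 23282 genes of the deposited table. Hepatocytes were released from C57BL/6N mouse livers by collagenase perfusion, plated and left untreated (control, 3 samples) or given recombinant IL-1β protein for 24 h (3 samples). IL-1β is a cytokine that macrophages release in inflammation. The labels do not state the dose given to the sequenced cultures or the age of the mice. The deposited description speaks of fewer samples in each group than it lists, and all 6 listed samples were used. RNA was read by QuantSeq, which sequences 1 fragment near the 3′ end of an mRNA, so that a count stands for a transcript and not for its length. Total counts were 10538667 in control 1, 11105408 in control 2 and 9566434 in control 3. After IL-1β they were 9538741, 10554243 and 11037083 in samples 1, 2 and 3.

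The liver makes most of the plasma proteins that carry iron and haem, and hepatocytes are a main store of the body's iron. Transferrin delivers ferric iron to the transferrin receptor, ferritin shells of heavy and light chains store iron inside cells, and ceruloplasmin oxidises iron as it leaves them. Haptoglobin and hemopexin bind free haemoglobin and haem, haem oxygenase breaks haem down and releases its iron, and lipocalin 2 withholds iron from bacteria by binding their siderophores. Several of these proteins belong to the acute-phase response.

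After IL-1β, 7 of the 10 genes rose (Lcn2, Steap4, Fth1, Cp, Tfrc, Hpx and Hp), 2 fell (Trf and Hmox1) and Ftl1 was not called, at an adjusted p below 0.05 from the quasi-likelihood test of edgeR with Benjamini-Hochberg adjustment over all genes tested. Of the 11657 genes tested, 6.97% were called higher, 6.44% lower and 13.4% in either direction, and 2746 had an unadjusted p below 0.05. The median log2 fold change of the 10 genes was 0.51, against -0.002 over all genes tested. Levels are given as CPM, counts scaled to a common library size. In 9 of the 10, all but Hpx, the values of the control and IL-1β samples did not overlap, which held for 28.2% of all genes tested. Scaling by total counts in place of the TMM method shifted the calls over all genes from 812 higher and 751 lower to 662 higher and 1008 lower. It moved the median log2 fold change over all genes from -0.002 to -0.055. This is too little to turn the direction of any of the 10 genes, but Ftl1 was then called (edgeR adjusted p = 0.0152). In RNA from whole cultures, fewer cells of a type and less RNA per cell cannot be told apart. The labels do not say whether the samples came from separate cultures or animals, so the p-values measure only the spread between these samples, which may be technical.

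**Figure D1:**
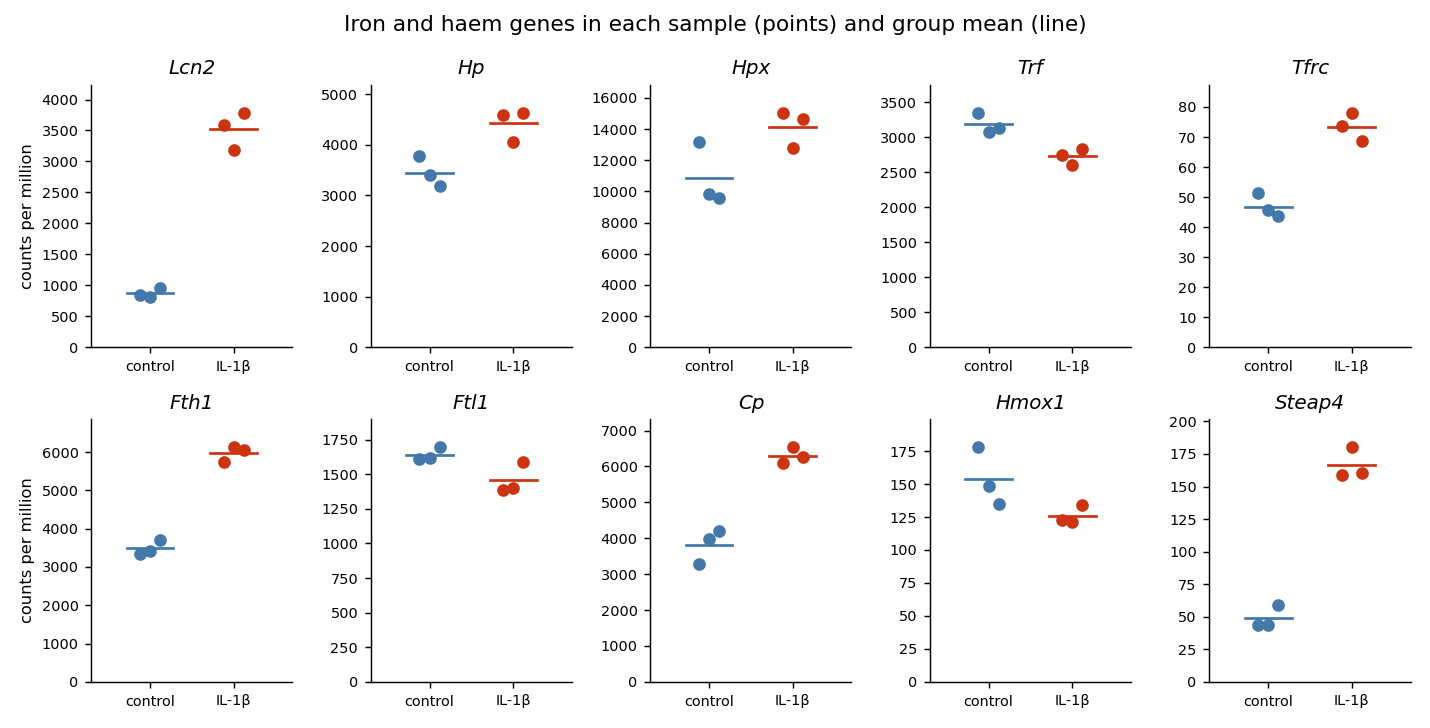
Normalised counts (CPM, vertical axes from 0) of the 10 genes in each control sample (blue) and each IL-1β sample (red), with lines at the group means of 3 samples. The red points lie above all blue points for Lcn2, Hp, Tfrc, Fth1, Cp and Steap4 and below them for Trf, Ftl1 and Hmox1, and control 1 of Hpx lies above IL-1β sample 2.

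The samples were compared with markers of the labelled cell type and of other liver cells. Albumin (Alb) was the most abundant of the hepatocyte markers, and the 11 markers summed to 27886, 28062 and 28095 CPM in the controls and to 23489, 25243 and 24438 CPM after IL-1β. Of the 10 hepatocyte markers tested, 7 fell and 3 were not called by edgeR, with a median log2 fold change of -0.32, and 5 were called by DESeq2. Over all genes tested, edgeR called 6.44% lower and 13.4% in either direction. Named after their values were seen, Hnf4a, which encodes the transcription factor HNF4α, fell from a mean of 87.7 to 42.7 CPM (log2 fold change -1.04 ± 0.087 SE, edgeR adjusted p = 1.6e-09), and Tat fell from 3.22 to 0.965 CPM (-1.71 ± 0.44 SE, edgeR adjusted p = 0.00876). Cps1, Ass1 and Tat, chosen for mention after their values were seen, encode enzymes of the urea cycle and of tyrosine breakdown that hepatocytes of the intact liver express strongly, and none of them exceeded 4.04 CPM in any sample.

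Neutrophils carry Lcn2 and Hp in their granules, and red cells carry haem, so their markers bear on these genes. The 10 neutrophil marker rows summed to 0, 0.448 and 0.403 CPM in the controls and to 2.67, 3.94 and 5.58 CPM after IL-1β. S100a8 was the most abundant of them, with no count in any control and 19, 36 and 51 counts in IL-1β samples 1, 2 and 3. It was the 1 marker tested and passed the filter only through the IL-1β samples, so its call as higher adds nothing to these counts. S100a9, Retnlg, Ngp, Mpo and Elane had 0 counts in all 6 samples. Erythroid markers summed to between 0.705 and 2.33 CPM over the 6 samples, Hba-a1 being the most abundant, with Hba-a2 and Slc4a1 among those at 0 counts.

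Macrophages recycle haem iron in the liver. Their 14 markers, led by Cd68, summed to 248, 280 and 276 CPM in the controls and to 258, 254 and 287 CPM after IL-1β. Of the 11 tested, 0 were called by edgeR, 3 had an unadjusted p below 0.05, 0 were called by DESeq2 or limma and 1 by the exact test of edgeR. Over all genes, 2746 of the 11657 tested had an unadjusted p below 0.05, and 13.4% were called by edgeR. Cd68 made up most of the sum, with means of 192 and 184 CPM, and the 11 had a median log2 fold change of 0.31. The 3 with an unadjusted p below 0.05, named after their values were seen, had positive log2 fold changes: C1qa 0.75 (adjusted p = 0.211, but 0.0432 without control 1), Marco 0.67 (adjusted p = 0.141) and Cd74 0.56 (adjusted p = 0.0658, but 0.0411 in the exact test and 0.0235 without control 1). The log2 fold change of C1qa was 1.18 without control 1 and 0.50 without control 3 (edgeR adjusted p = 0.489). Sinusoidal endothelial markers, led by Eng, summed to between 75.5 and 82.9 CPM, with a median log2 fold change of -0.56 over the 8 tested, of which 5 had an unadjusted p below 0.05. Named after their values were seen, Clec4g fell from a mean of 5.80 to 0.765 CPM (log2 fold change -2.87 ± 0.43 SE, edgeR adjusted p = 1.9e-05) and Kdr from 4.55 to 1.62 CPM (-1.49 ± 0.36 SE, edgeR adjusted p = 0.00511), while Lyve1 rose from 18.8 to 25.8 CPM (0.45 ± 0.14 SE, edgeR adjusted p = 0.0274), a call lost under 5 of the 16 alternatives (adjusted p up to 0.137). Stellate markers, led by Sparc, summed to between 38.4 and 45.8 CPM, with 0 of the 2 tested called by edgeR, DESeq2 or limma and 0 at an unadjusted p below 0.05. Cholangiocyte markers, led over all samples by Sox9, summed to between 316 and 330 CPM in the controls and to between 236 and 240 CPM after IL-1β. Sox9 itself was at 136, 128 and 138 CPM in the controls and at 148, 158 and 158 CPM after IL-1β (log2 fold change 0.21 ± 0.071 SE, edgeR adjusted p = 0.0519), and 5 of the alternatives called it, among them DESeq2 (adjusted p = 0.0414). The lower sum came from Spp1, named after its values were seen, which fell from 190, 188 and 192 CPM to 88.3, 81.8 and 78.1 CPM (log2 fold change -1.20 ± 0.074 SE, edgeR adjusted p = 4.4e-12). The part of these cell types in the results was not tested.

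Lcn2 (Entrez 16819, minus strand of chr2:32384637-32387739 on GRCm38) encodes lipocalin 2, a secreted acute-phase protein that captures iron-laden bacterial siderophores. It was at 838, 820 and 962 CPM in control samples 1, 2 and 3 and at 3590, 3187 and 3783 CPM in IL-1β samples 1, 2 and 3. The lowest IL-1β sample lay far above the highest control. The level was 4.03 times that of the controls, a log2 fold change of 2.01 ± 0.071 (SE, the standard error of the fit), for which edgeR gave an adjusted p of 1.4e-16. Leaving out any 1 sample gave log2 fold changes from 1.96 to 2.08.

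Hp (Entrez 15439, minus strand of chr8:109575128-109579172) encodes haptoglobin, which binds haemoglobin set free from red cells. It was at 3773, 3401 and 3182 CPM in the controls and at 4594, 4060 and 4630 CPM after IL-1β. All IL-1β samples were above all controls, although the lowest of them was close to the highest control. Its level was 28.3% higher, a log2 fold change of 0.36 ± 0.066 (SE), for which edgeR gave an adjusted p of 3.0e-04.

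Hpx (Entrez 15458, minus strand of chr7:105591611-105600116) encodes hemopexin, the plasma protein with the tightest hold on free haem. Its values were 13196, 9863 and 9550 CPM in the controls and 15034, 12760 and 14640 CPM after IL-1β. Control 1 was high among the controls and exceeded IL-1β sample 2, so that the groups overlapped. The log2 fold change was 0.38 (± 0.085 SE, edgeR adjusted p = 0.00267), and DESeq2 did not call it, with an adjusted p of 0.144 where the other settings ranged down to 1.5e-12. Without control 1 the log2 fold change was highest, at 0.54.

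A list on siderophores and lipocalin 2 held 4 more genes, few of them detectable. Slc22a17, which encodes a lipocalin 2 receptor, did not exceed 0.658 CPM in any sample. Lrp2, the endocytic receptor megalin, and Ltf, which encodes the iron-binding protein lactoferrin, had 0 counts. Bdh2, which encodes an enzyme linked to the making of a mammalian siderophore, was the 1 gene of the 4 that could be tested. It had a log2 fold change of -0.10 and was called by none of edgeR, DESeq2 and limma or at an unadjusted p below 0.05.

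Trf (Entrez 22041, minus strand of chr9:103208876-103230286) encodes transferrin, the iron carrier of plasma. It was at 3349, 3079 and 3141 CPM in the controls and at 2747, 2603 and 2840 CPM after IL-1β. Each IL-1β sample was below each control, by a margin that was small beside the levels. Trf fell by 0.22 on the log2 scale (± 0.058 SE, edgeR adjusted p = 0.00847), a change of -14.4%. Without IL-1β sample 2 the adjusted p was 0.091, the highest of a range that reached down to 0.00105 over the alternatives, and 33.3% of the 75-nt windows in the last 500 nt of the transcript also occur in the annotated gene Gm20425.

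Tfrc (Entrez 22042, plus strand of chr16:32608896-32632794) encodes transferrin receptor 1, which takes iron-loaded transferrin into the cell. Its values were 51.3, 45.7 and 43.6 CPM in the controls and 73.7, 78.0 and 68.7 CPM after IL-1β. The groups were clearly apart, and the samples within each were close together. After treatment the level was 56.7% higher, a log2 fold change of 0.65 ± 0.094 (SE), for which edgeR gave an adjusted p of 1.5e-05.

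Steap4 (Entrez 117167, plus strand of chr5:7960472-7982213) encodes a membrane reductase that turns ferric into ferrous iron and also reduces copper. It was at 43.3, 44.0 and 59.3 CPM in the controls and at 159, 180.0 and 161 CPM after IL-1β. Control 3 was the highest control and still lay well below every IL-1β sample. Steap4 reached 3.42 times the control level, a log2 fold change of 1.77 ± 0.1 (SE), for which edgeR gave an adjusted p of 7.5e-13.

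Other genes of iron import and reduction were read from a list of 8, of which 7 could be tested. Of these 7, 4 rose and 3 were not called, where 13.4% of all genes tested were called. The 7 had a median log2 fold change of 0.84, and 6 had an unadjusted p below 0.05, as did 2746 of the 11657 genes tested. Among the 3, Tfr2, which encodes transferrin receptor 2, and Steap3, a reductase of endosomes, were named after their values were seen. They had negative log2 fold changes, -0.30 (± 0.11 SE, edgeR adjusted p = 0.0924) and -0.28 (± 0.1 SE, edgeR adjusted p = 0.0787). The groups did not overlap for either gene, which held for 28.2% of all genes tested. Total-count scaling called Tfr2 and Steap3 (adjusted p of 0.0353 and 0.0318), and Steap3 was also called with upper-quartile scaling (adjusted p = 0.0446) and without control 1 (adjusted p = 0.0384). Slc39a14, which encodes the importer ZIP14 for iron not bound to transferrin, was at 27.5, 29.9 and 29.7 CPM in the controls and at 67.7, 67.8 and 59.6 CPM after IL-1β (log2 fold change 1.16 ± 0.1 SE, edgeR adjusted p = 2.6e-09). Slc11a2, which encodes the ferrous iron transporter DMT1, was at 90.0, 105 and 105 CPM in the controls and at 179, 188 and 192 CPM after IL-1β (log2 fold change 0.90 ± 0.077 SE, edgeR adjusted p = 2.0e-09). For both transporters the groups were far apart.

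The other called genes of import were read from few counts. Steap2, a reductase related to Steap4, rose with a log2 fold change of 0.94 (± 0.21 SE, edgeR adjusted p = 0.00272) from between 5.07 and 6.53 CPM to between 9.73 and 12.4 CPM. Slc39a8, the importer ZIP8, had a log2 fold change of 0.84 (± 0.27 SE, edgeR adjusted p = 0.0409), with control 3 at 6.35 CPM next to IL-1β sample 3 at 6.41 CPM. Its call was lost with total-count scaling (adjusted p = 0.0532) and without control 1, control 2, IL-1β sample 1 or IL-1β sample 2, at adjusted p of 0.0649, 0.18, 0.125 and 0.194, where all alternatives ranged from 0.00949 to 0.194.

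Cp (Entrez 12870, plus strand of chr3:19957054-20009750) encodes ceruloplasmin, the copper-containing ferroxidase of plasma. Its values were 3293, 3971 and 4189 CPM in the controls and 6094, 6528 and 6254 CPM after IL-1β. Control 1 was the lowest of the controls, and all of them were below all IL-1β samples. Transcript levels were 64.8% higher, a log2 fold change of 0.72 ± 0.069 (SE), for which edgeR gave an adjusted p of 1.8e-08. Hps3 overlaps Cp on the opposite strand and was at between 9.94 and 17.9 CPM, and whether the counting used strand is not given in the sources used here.

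Iron leaves cells through ferroportin, encoded by Slc40a1. This gene was at 94.2, 89.2 and 105 CPM in the controls and at 54.2, 57.5 and 51.4 CPM after IL-1β. Every IL-1β sample was well below every control. Slc40a1 fell by 0.82 on the log2 scale (± 0.089 SE, edgeR adjusted p = 1.5e-07). Of the other ferroxidases, Heph did not exceed 1.60 CPM and was not called, except without control 2 (adjusted p = 0.00538), and Hephl1 had 0 counts.

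Fth1 (Entrez 14319, plus strand of chr19:9980600-9985111) encodes the ferritin heavy chain, which oxidises iron on its way into the ferritin shell. It was at 3331, 3412 and 3716 CPM in the controls and at 5736, 6120 and 6050 CPM after IL-1β. All IL-1β samples were far above all controls. Fth1 was 71.2% higher, a log2 fold change of 0.78 ± 0.058 (SE), for which edgeR gave an adjusted p of 1.5e-10.

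Ftl1 (Entrez 14325, minus strand of chr7:45457944-45459886) encodes the ferritin light chain, which helps the iron core form. Its values were 1611, 1619 and 1694 CPM in the controls and 1390, 1404 and 1587 CPM after IL-1β. The groups did not overlap, but IL-1β sample 3 lay just under the lowest control. The log2 fold change was -0.17 (SE 0.061, 95% interval -0.29 to -0.05), with an adjusted p of 0.0745 from edgeR. An adjusted p below the threshold was obtained under 6 of the 16 alternatives, among them upper-quartile scaling (0.0329), total-count scaling (0.0152), no filter (0.0434) and the removal of control 1 (0.0356) or IL-1β sample 3 (0.0208), in a range of 0.0152 to 0.33 over all settings. The Ftl1 counts are uncertain for a further reason, since 68.1% of the 75-nt windows in the last 500 nt of its transcript also occur in at least 1 of 6 other annotated genes, among them Ftl1-ps1, Ftl1-ps2 and Ftl2-ps, against 7.7% for Fth1.

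The balance of the ferritin chains was followed as the share of Fth1 in the counts of Fth1 and Ftl1, a quantity that does not depend on the scaling of libraries. The share was 67.4%, 67.8% and 68.7% in control samples 1, 2 and 3. After IL-1β it was 80.5%, 81.3% and 79.2%. The samples of each group lay within a narrow band, and the bands were far apart. The means were 67.97% ± 0.66 (SD, n = 3) and 80.35% ± 1.07 (SD, n = 3), a difference of 12.38 percentage points (two-sided p = 0.1 by an exact permutation test, which cannot go lower with 3 samples against 3). Reads that Ftl1 shares with other genes may have been left out or assigned to either gene, and the effect of this on the share was not tested.

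Of the genes that load ferritin with iron or deliver it to breakdown, 3 of 4 were tested (Ncoa4, Pcbp1 and Pcbp2), 0 were called by edgeR, DESeq2 or limma, and 0 had an unadjusted p below 0.05. Their median log2 fold change was 0.00. The iron regulatory proteins, encoded by Aco1 and Ireb2, and Fbxl5, which sets the amount of the latter, had a median of 0.07. Of these 3 genes, 0 were called by edgeR, DESeq2 or limma, and 1 had an unadjusted p below 0.05. The 10 genes of mitochondrial iron handling and iron-sulfur assembly had a median of 0.03, with 0 called by these tools and 0 at an unadjusted p below 0.05. Among all 11657 genes tested, edgeR called 13.4%, and 2746 had an unadjusted p below 0.05. Lists this short can hold few or no calls at that share.

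Iron regulatory proteins bind a hairpin of mRNA, the iron-responsive element, which blocks translation when it lies in the 5′ UTR and protects the mRNA from decay when it lies in the 3′ UTR. GENCODE transcripts of GRCm38 were searched for a C, 5 bases, the loop CAGTGN and 5 bases that pair with the first 5, G-T pairs included. Such a hairpin was found in the 5′ UTR of 0.14% and in the 3′ UTR of 0.59% of 21877 coding genes. Fth1, Ftl1 and Slc40a1 each held 1 in the 5′ UTR, at chr19:9982733-9982759 on the plus strand, at chr7:45459780-45459806 on the minus strand and at chr1:45925466-45925492 on the minus strand. Tfrc held 4 in its 3′ UTR on the plus strand, the first at chr16:32631220-32631246 and the last at chr16:32631711-32631737. Of the other listed genes for which matches were kept, Alas2 held 1 in the 5′ UTR and Keap1 held 1 in the coding sequence. Matches were not kept for every listed gene, so the listed genes and the coding genes behind the shares were not read alike. A hairpin with an unpaired base among these 5 would be missed, so genes without a match may still hold an element. Of the genes with a kept match in a UTR, Fth1 and Tfrc were higher, Slc40a1 was lower and Ftl1 and Alas2 were not called (Alas2 log2 fold change -0.32 ± 0.18 SE, edgeR adjusted p = 0.31). Among all genes tested, 13.4% were called. A part of the elements in these levels was not tested. In the elements shown, the loop is in capitals. The counts are per gene and do not show which transcript form carries the element.
Fth1 5′ UTR: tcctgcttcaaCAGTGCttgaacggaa
Ftl1 5′ UTR: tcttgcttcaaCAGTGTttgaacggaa
Slc40a1 5′ UTR: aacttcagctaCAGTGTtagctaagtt
Tfrc 3′ UTR, first: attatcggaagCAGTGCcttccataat
Tfrc 3′ UTR, last: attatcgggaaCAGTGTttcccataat
A match describes the letters of the transcript, and binding of the proteins was not measured.

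Hmox1 (Entrez 15368, plus strand of chr8:75093618-75100593) encodes haem oxygenase 1, the inducible enzyme that opens the haem ring. It was at 178, 149 and 135 CPM in the controls and at 123, 121 and 134 CPM after IL-1β. Control 1 was high, and control 3 lay only just above IL-1β sample 3. Hmox1 fell by 0.29 on the log2 scale (± 0.087 SE, edgeR adjusted p = 0.0258). The call was lost without control 1, where the log2 fold change was -0.17 (adjusted p = 0.165), and without IL-1β sample 1 (adjusted p = 0.134) or IL-1β sample 2 (adjusted p = 0.139), while all settings ranged from 0.00381 to 0.165.

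Of the other genes of haem uptake, transport and degradation, 9 of 10 were tested, with 1 higher, 1 lower and 7 not called. Calls made up 13.4% of all genes tested. The 9 had a median log2 fold change of -0.10, and 5 had an unadjusted p below 0.05, as did 2746 of the 11657 genes tested. Blvrb, which encodes a biliverdin reductase acting after haem oxygenase, was at 311, 339 and 341 CPM in the controls and at 491, 479 and 540 CPM after IL-1β (log2 fold change 0.61 ± 0.067 SE, edgeR adjusted p = 1.8e-07). Abcg2, which encodes an exporter of porphyrins, was at 93.0, 109 and 113 CPM in the controls and at 62.5, 65.7 and 61.3 CPM after IL-1β (log2 fold change -0.73 ± 0.087 SE, edgeR adjusted p = 8.2e-07). Both had groups that were far apart. The constitutive haem oxygenase Hmox2 was not called, with a log2 fold change of 0.07.

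In haem synthesis, 1 of 9 genes rose and 8 were not called, where 13.4% of all genes tested were called. The median log2 fold change of the 9 was 0.00, and 3 had an unadjusted p below 0.05, as did 2746 of the 11657 genes tested. The gene that rose was Alas1, which encodes the rate-limiting enzyme of the pathway in liver. It was at 54.5, 60.5 and 70.1 CPM in the controls and at 84.9, 81.4 and 86.8 CPM after IL-1β. All IL-1β samples were above all controls, with a log2 fold change of 0.45 (± 0.093 SE, edgeR adjusted p = 0.00113).

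Hmox1, Fth1 and Ftl1 are known targets of the oxidant-responsive factor NRF2 (Nfe2l2) and of its haem-sensing rival BACH1. A list of 10 antioxidant genes holds 3 regulators, Nfe2l2, Bach1 and Keap1, and 7 genes that NRF2 is known to control. In a split made after the values were seen, 5 of these 7 rose, 1 fell and 1 was not called, where 13.4% of all genes tested were called. Their median log2 fold change was 0.41, and all 7 had an unadjusted p below 0.05, as did 2746 of the 11657 genes tested. Of the 5 calls, 2 depend on the processing: that of Gclc (log2 fold change 0.19, edgeR adjusted p = 0.036) was lost under 8 of the 16 alternatives, the exact test among them (adjusted p = 0.0519, and up to 0.194), and that of Txnrd1 (log2 fold change 0.20, edgeR adjusted p = 0.0288) under 6 (adjusted p up to 0.141). Of the regulators 2 rose, Nfe2l2 and the repressor Bach1, and 1 was not called. Nfe2l2, named after its values were seen, rose from a mean of 206 to 285 CPM (log2 fold change 0.47 ± 0.066 SE, edgeR adjusted p = 8.4e-06). Bach1 was at 67.6, 86.8 and 68.2 CPM in the controls and at 133, 126 and 131 CPM after IL-1β (log2 fold change 0.81 ± 0.09 SE, edgeR adjusted p = 2.3e-07). Slc7a11, a cystine importer, rose with a log2 fold change of 0.75 (SE 0.072), Gclm, a subunit of the enzyme that starts glutathione synthesis, with 0.67 (SE 0.068) and Srxn1, sulfiredoxin, with 0.43 (SE 0.059). The gene that fell was Osgin1, named here after its values were seen, with a log2 fold change of -0.28, and its call was lost without IL-1β sample 2 (adjusted p = 0.061). Hmox1 fell while Slc7a11, Gclm and Srxn1 rose.

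Hepcidin, the liver hormone that degrades ferroportin, is encoded by Hamp, which was at 7.14, 7.07 and 6.55 CPM in the controls and at 80.0, 52.4 and 73.0 CPM after IL-1β (log2 fold change 3.30 ± 0.15 SE, edgeR adjusted p = 1.6e-14). The list of iron sensing for hepcidin had 4 genes tested, with 1 higher (Hamp), 2 lower and 1 not called (Hfe, log2 fold change 0.07, edgeR adjusted p = 0.837) and a median log2 fold change of -0.27. Calls made up 13.4% of all genes tested. Tmprss6 fell by 0.61 and Hfe2, hemojuvelin, by 0.91 on the log2 scale, and the call of Hfe2 was lost without control 2 (adjusted p = 0.0804) or IL-1β sample 3 (adjusted p = 0.0785), in a range from 0.00254 to 0.0804.

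Over the 9 lists of iron and haem genes outside the 10, 48 genes were tested, of which 7 were higher, 4 lower and 37 not called. Among all genes tested, 13.4% were called. The median log2 fold change of the 48 was 0.01, and 20 of them had an unadjusted p below 0.05, as did 2746 of the 11657 genes tested. The calls lay in import, export, hepcidin control, the first step of haem synthesis and the handling of haem and its products.

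**Figure D2:**
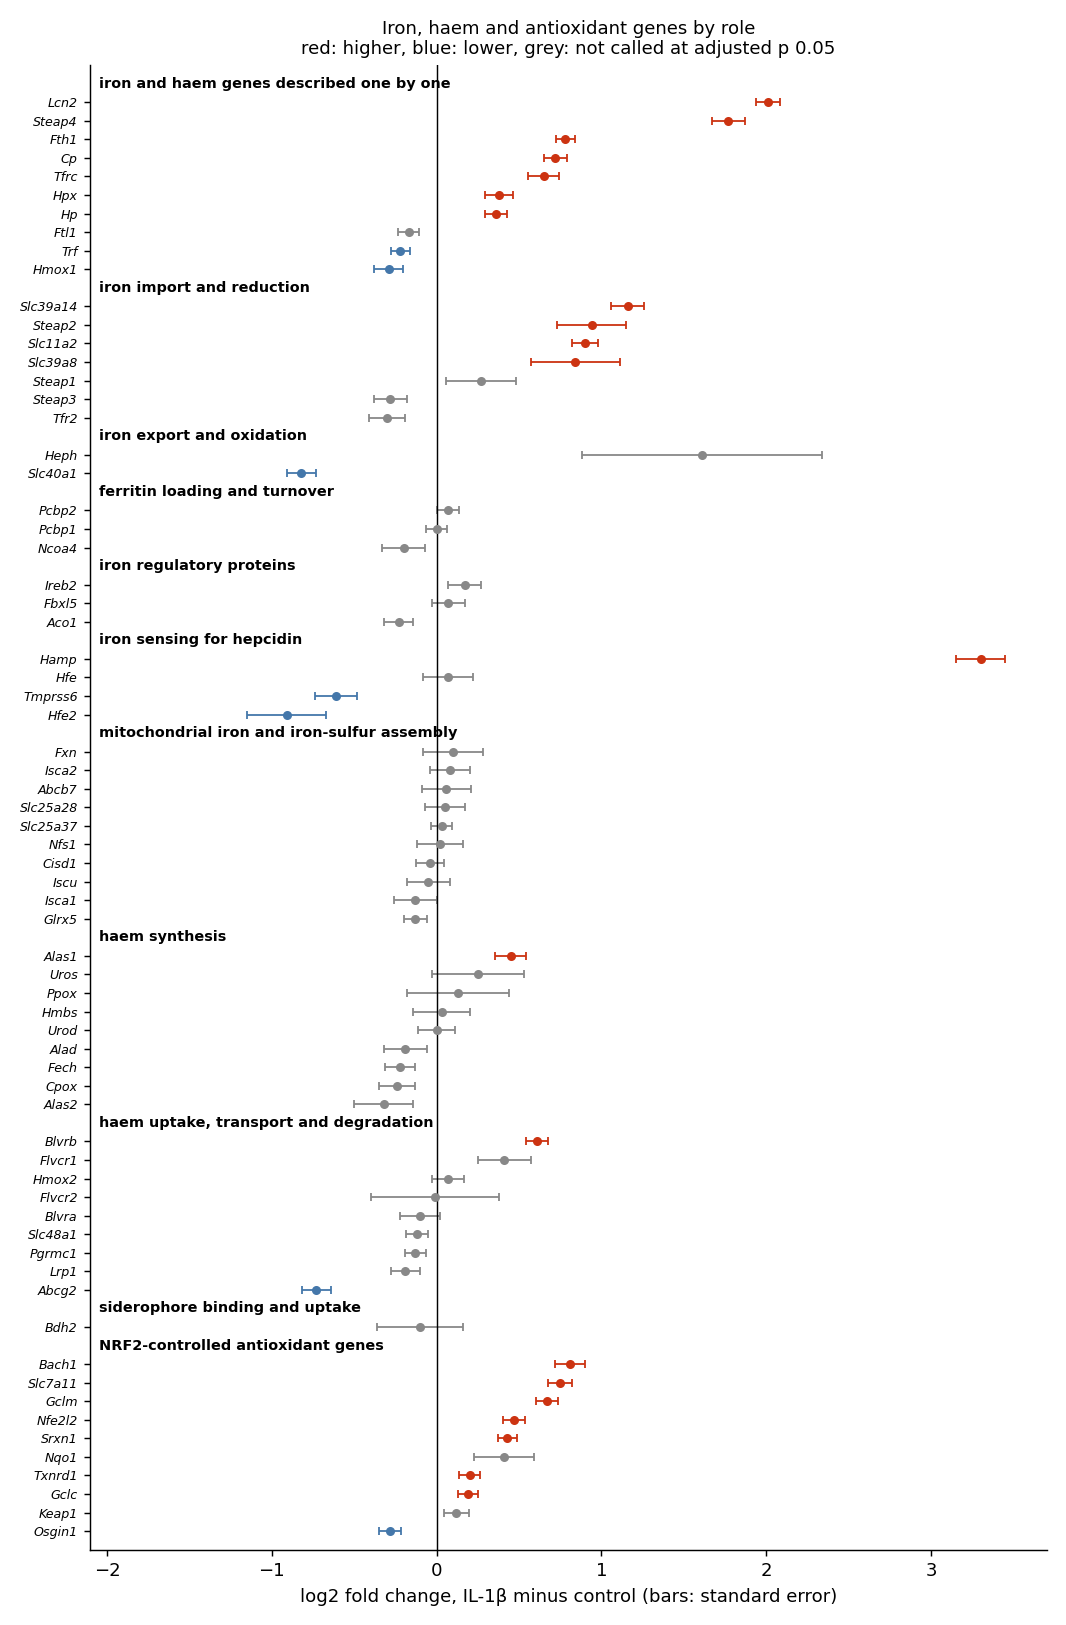
Log2 fold changes of IL-1β minus control (horizontal axis) with standard errors (bars) for the 10 genes and for the tested genes of each list, from 3 samples per group. Points in red are higher, in blue lower and in grey not called, and they range from -0.91 for Hfe2 to 3.30 for Hamp.

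The profile over the 6 samples was set beside those of 7970 other genes with a mean of at least 10 CPM, as the root mean square difference of log2(CPM + 1) after centring. The genes most like Lcn2 were Rnd1 (difference 0.086), Ccl2 (0.099) and Slpi (0.140). Rnd1, a small GTPase, rose from a mean of 15.4 to 68.1 CPM, Ccl2, a monocyte-attracting chemokine, from 254 to 937 CPM and Slpi, a secreted protease inhibitor, from 347 to 1190 CPM. Their log2 fold changes were 2.15, 1.88 and 1.78.

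The 250 bases before each listed start were read from RefSeq promoters of GRCm38.p6, which held 7 of the 10 genes (not Hp, Trf and Hmox1). Tfrc, Fth1 and Cp have 2 listed starts each, and a gene was counted when either promoter held a match. Motifs of factors that act in the acute-phase response were searched on both strands, after the values were seen: GGGANNNCC for NF-κB, TTNNGNAA for C/EBP and TTCNNNGAA for STAT3. Sites of these factors with other letters or another length were not searched, so a promoter without a match may still hold one. Of 32851 promoters of this length, 15.8% held GGGANNNCC, 36.8% TTNNGNAA and 7.0% TTCNNNGAA, and of 8839 tested genes with a promoter, 23.4%, 32.7% and 7.2% held them. An NF-κB motif was found in 2 of the 7 genes (Tfrc and Steap4), a C/EBP motif in 6 (Lcn2, Hpx, Fth1, Ftl1, Cp and Steap4) and the STAT3 motif in 1 (Steap4). The promoters of Lcn2 (minus strand of chr2:32387740-32387989) and Steap4 (plus strand of chr5:7960222-7960471) are shown because these genes had the highest log2 fold changes of the 10, with all matches in capitals.
Lcn2: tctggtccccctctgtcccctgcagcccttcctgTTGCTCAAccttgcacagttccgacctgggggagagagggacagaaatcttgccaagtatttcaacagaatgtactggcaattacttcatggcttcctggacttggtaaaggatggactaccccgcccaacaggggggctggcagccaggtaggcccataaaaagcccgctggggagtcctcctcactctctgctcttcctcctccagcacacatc
Steap4: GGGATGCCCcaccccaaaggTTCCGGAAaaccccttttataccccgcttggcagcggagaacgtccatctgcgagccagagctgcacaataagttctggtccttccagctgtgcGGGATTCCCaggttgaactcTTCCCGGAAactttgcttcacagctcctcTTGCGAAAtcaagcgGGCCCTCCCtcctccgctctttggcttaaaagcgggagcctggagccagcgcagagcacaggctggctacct
The Lcn2 window held 1 C/EBP match, TTGCTCAA, from -216 to -209 relative to the start. In the Steap4 window, which held 3 NF-κB matches, 2 C/EBP matches and 1 STAT3 match, the NF-κB match GGGATTCCC lay from -136 to -128, the STAT3 match TTCCCGGAA from -116 to -108 and a C/EBP match, TTGCGAAA, from -87 to -80. A match is a description of the letters, and binding was not measured.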

How the data were processed

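The authors deposited raw read counts per gene for 6 libraries of single-end 75-nt reads, and the submitters' processing notes name Bowtie2, edgeR and the builds mm10 and GRCm38. How reads were counted, and how those matching more than 1 gene were treated, is not given in the sources used here. Columns of log2 normalized values, fold changes and p-values made by the authors were not used. Here edgeR 4.0.16 under R 4.3.3 was run on the counts (filterByExpr, TMM, quasi-likelihood test), p-values of the 11657 genes that passed the filter were adjusted by Benjamini-Hochberg, and CPM were computed on TMM-scaled libraries. All 10 genes passed the filter. On TMM-scaled library sizes of 9354136 to 11171327, 3 counts correspond to between 0.269 and 0.321 CPM, which covers counting error only. The fit was tested on simulated data.

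The 10 genes and all lists were chosen with earlier results of these data known. Named are the 10 genes, Hamp, at most 4 called genes of each list with the smallest adjusted p, the most abundant and the undetected markers of each cell type, and the 3 profiles most like Lcn2. A gene that this rule selects is not reported here. Other list genes and markers (among them Cps1, Ass1, Tat, Hnf4a, Spp1, Osgin1, Nfe2l2, Heph, Hmox2, Bdh2, Tfr2, Steap3, Alas2, Hfe, Gclc, Txnrd1, C1qa, Marco, Cd74, Clec4g, Kdr and Lyve1) were named after their values were seen. Hfe2 stands for hemojuvelin, which the lists hold under 2 symbols. Matches to the hairpin of the iron-responsive element were not kept for some listed genes, among them Fech and Ftmt. Whether these hold a match is not given here. The 16 alternatives used DESeq2 1.42.0, limma 3.58.1 on log2(CPM + 1) and log2(CPM + 0.1), the exact test of edgeR, other scalings and filters (none, or at least 10 counts in every sample), a replicate block, the removal of Rn45s and the removal of each sample. Python 3.11.15 and SciPy 1.17.1 were used for the exact permutation test and the sequence searches.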

Additional observations from a re-analysis of the deposited data

How the results depend on the processing

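Under the 16 alternatives, the 10 genes kept their direction in every case, and the called or not called state was kept in 149 of 160 cases. The exceptions were 5 cases in which a call was lost (Hpx, Trf and Hmox1) and 6 in which Ftl1 was called, given with the results or in what follows. The number of the 10 genes called was 8 with DESeq2, 9 with the exact test of edgeR and with limma, 10 with upper-quartile scaling, total-count scaling or no filter, and 7 to 10 with a sample left out. Over all lists outside the 10, 19 genes were called, and 16 to 19 under the alternatives. The 18 other genes named from the lists, as Hamp or for likeness to Lcn2 kept their state in 281 of 288 cases, the exceptions being Slc39a8 and Hfe2. The most abundant markers did so in 92 of 110 cases, with the call of Alb lost in 4 and Sox9 called in 5. Small log2 fold changes that were not called changed sign in the other 9: with upper-quartile and total-count scaling, Eng was at -0.01 and -0.04 and Sparc at -0.01 and -0.04, and with each sample left out Eng ranged from -0.05 to 0.12 and Sparc from -0.02 to 0.04. Of the genes named outside the rule, Hmox2 ranged from -0.02 to 0.20 and Bdh2 from -0.35 to 0.06 with each sample left out, neither being called. Over all genes, 1563 were called, and between 1131 and 1728 under the alternatives. The difference in the Fth1 share stayed between 11.89 and 12.95 percentage points with each sample left out.

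Deviations of samples with the same replicate number had correlations of 0.08, 0.03 and -0.00 after removal of group means. The labels do not say whether the numbers pair the samples. These correlations cannot decide it, since paired samples need not deviate together over all genes. With the number as a replicate block, 1671 genes were called, against 1563 without it. Of these, 10 were among the 10 genes (Ftl1 added, at an edgeR adjusted p of 0.0188), and no other call among the 10 changed. Adding the counts of ferritin pseudogenes to Fth1 and Ftl1 was planned and could not be run, since 0 such rows were found in the table. Reads near the 3′ end do not tell transcript forms of a gene apart, mRNA levels were measured at 1 time, and iron, haem and protein were not measured.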
